A study of Homo sapiens with 8 samples.

Results

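The genes described here set acidity inside and outside a cell: the carbonic anhydrases CA2, CA9, CA12 and CA13, the proton pump subunit ATP6V1B1, the lactate carriers SLC16A1 and SLC16A3, and the bicarbonate transporters SLC4A2 and SLC4A7. These 9 genes were taken by symbol from tables of 24252 genes, and each symbol was found once. The set was selected on the measured difference between OGD-R and Control FPKM in these same libraries, so their values are given as a description and carry no test. The RNA came from HaCaT, a spontaneously immortal keratinocyte line from human skin, so all libraries share 1 cell line. The 4 Control libraries came from cells with no treatment named in the labels, and the 4 OGD-R libraries from cells that had been through oxygen and glucose deprivation and then the return of both, at an early stage by the labels. How long each phase lasted is not given here. The labels do not say whether libraries came from separate cultures, so errors and p-values measure only library-to-library spread, possibly technical. These are bulk libraries, in which fewer cells of a type and less RNA per cell cannot be told apart.

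Cells that burn glucose to lactate make acid, and several protein families remove it. Carbonic anhydrases turn carbon dioxide and water into bicarbonate and a proton, in the cytosol (CA2, CA13) or on the outer face of the membrane (CA9, CA12). The V-ATPase pumps protons into lysosomes or out of the cell, monocarboxylate transporters move lactate together with a proton, and the SLC4 family carries bicarbonate. CA9 and SLC16A3 are known targets of hypoxia-inducible factor, which low oxygen keeps from being degraded.

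The libraries did not all lie where their labels put them. Across 11740 genes tested, log2 values of Controls 1 and 2 correlated with those of Controls 3 and 4 at between 0.874 and 0.881. That was below the correlation of Controls 1 and 2 with OGD-R (0.940 to 0.947). Controls 3 and 4 correlated with OGD-R at between 0.879 and 0.887, and with each other at 0.991. OGD-R libraries correlated among themselves at between 0.992 and 0.993. The 9 genes are therefore given in all 4 Controls, and folds are given by pair of Controls where these differ most. Values were taken as FPKM, fragment counts scaled to transcript length and library size, though no header states the unit. On that reading, levels of different genes may be set side by side. The spacing of the lowest values put 1 fragment on a transcript of 2 kilobases at between 0.02001 and 0.02956 FPKM, from few values per library. All 12 keratinocyte markers examined were above a mean of 1 FPKM, whereas the markers of fibroblasts (1 of 8, COL1A1), immune cells (1 of 8, CD68), melanocytes (0 of 6) and endothelium (0 of 5) were mostly near 0. The defining genes COL1A2, TYR and CD1A were at 0 in every library.

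In OGD-R cells CA2 and ATP6V1B1 had more RNA and the lactate carrier SLC16A3 and the sodium bicarbonate cotransporter SLC4A7 had less RNA than in Control cells. CA2 was 3.79-fold higher by group means, and ATP6V1B1 was higher by a factor that depended on the Controls, 3.86 against Controls 3 and 4 and 121 against Controls 1 and 2. SLC16A3 was 2.88-fold and SLC4A7 2.18-fold higher in Control. SLC16A1, SLC4A2, CA12 and CA13 were higher in Control by 1.24-fold to 1.599-fold. In each of the 9 genes no OGD-R library overlapped a Control library, with 3 genes above and 6 below. Over the genes tested, the same separation held for 15.2% above and 14.8% below. Means reached 1 FPKM in 7 of the 9 genes (all but CA9 and CA13). Of these, limma, a linear model across all genes at a Benjamini-Hochberg adjusted p of 0.05, put 2 past its threshold as higher and 3 as lower. These counts are no test of the members, which were selected on the same difference. The background was 10.2% of genes called higher and 9.69% called lower (19.9% in either direction), and nothing is read from the members' count, here or below. Without Controls 3 and 4, 2 of the 7 were called higher and 5 lower (background 23.0% and 32.5%), and without Controls 1 and 2 the counts were 2 and 4 (background 39.3% and 28.5%). Scaled without mitochondrial genes they were 2 and 2 (background 13.7% and 7.43%), and with median-ratio scaling 2 and 4 (background 10.7% and 10.5%). The median log2 fold change of the 7 genes was -0.30, against 0.02 over all genes tested.

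**Figure D1:**
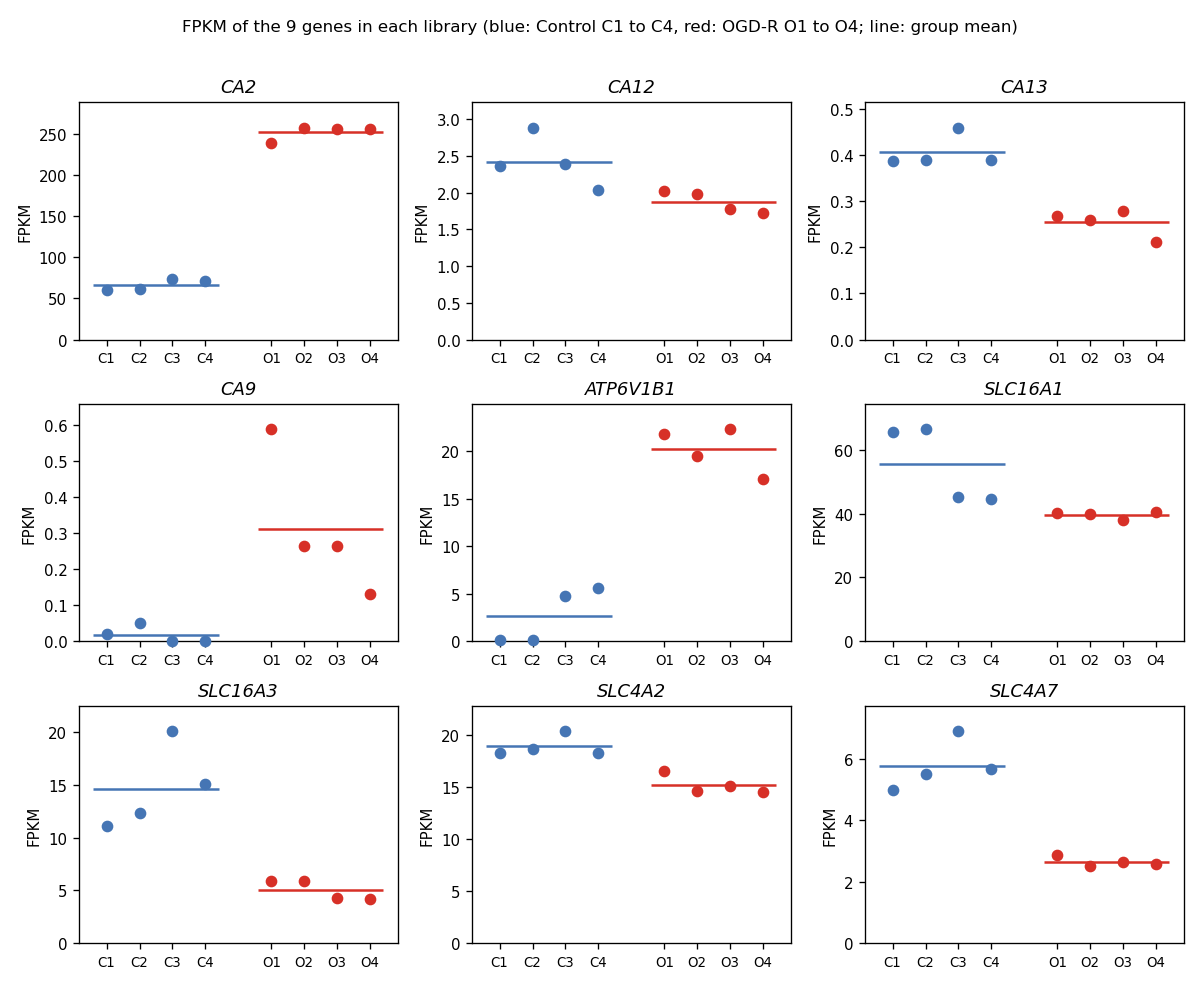
Level of each of the 9 genes in FPKM (vertical axes, from 0) in Controls C1 to C4 (blue) and OGD-R libraries O1 to O4 (red), with 1 point per library and a line at each group mean. CA2 lies between 238.5 and 257 FPKM in OGD-R, above every Control, and the Controls of ATP6V1B1 and SLC16A1 fall in 2 places.

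CA2, the fast cytosolic carbonic anhydrase (ENSG00000104267, chromosome 8, 85463852 to 85481493, plus strand, GRCh38), was at 60.6, 61.3, 73.1 and 70.6 FPKM across Controls 1 to 4. In OGD-R 1 to 4 it was at 238.5, 257, 255 and 255 FPKM. The groups lay far apart, the lowest OGD-R library being 3.26-fold above the highest Control. Group means were 66.4 ± 6.35 FPKM in Control and 252 ± 8.74 FPKM in OGD-R (SD, n = 4 each), and the log2 fold change was 1.91 ± 0.09 (SE). Leaving out Controls 3 and 4 gave 2.03 and leaving out Controls 1 and 2 gave 1.79, so CA2 differed little between the pairs of Controls. Among all 24252 genes, CA2 ranked between 742 and 1099 in Control and between 179 and 190 in OGD-R.

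Most carbonic anhydrase RNA in these cells was CA2. Its share of the summed FPKM of the 15 carbonic anhydrase genes was between 90.05% and 91.9% in Control and between 96.7% and 97.5% in OGD-R. The sum of the other 14 was 6.37 ± 1.20 FPKM in Control and 7.08 ± 0.705 FPKM in OGD-R (SD, n = 4 each), with overlapping groups. CA2 lies in a cluster of carbonic anhydrase genes on chromosome 8, where its neighbours were low in every library. CA3, a muscle enzyme (85373436 to 85449040, plus strand), reached at most 0.213 FPKM. CA1, the enzyme of red blood cells (85327608 to 85379014, minus strand), reached at most 0.0433 FPKM.

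CA13, another cytosolic enzyme of that cluster (ENSG00000185015, chromosome 8, 85220587 to 85284073, plus strand), was at 0.387, 0.390, 0.459 and 0.389 FPKM across Controls 1 to 4. In OGD-R it was at 0.267, 0.260, 0.279 and 0.211 FPKM. It was thus lower in OGD-R, where CA2 was higher, at a level below the filter of 1 FPKM. The mean was 1.599-fold higher in Control.

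CA12, a membrane enzyme with its active site outside the cell (ENSG00000074410, chromosome 15, 63321378 to 63382161, minus strand), was at 2.37, 2.89, 2.39 and 2.03 FPKM across Controls 1 to 4. In OGD-R it was at 2.02, 1.99, 1.77 and 1.72 FPKM. The groups all but touched, since the lowest Control was 1.01-fold above the highest OGD-R library. Its log2 fold change was -0.24 ± 0.10 (SE).

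CA9, the hypoxia-induced membrane enzyme (ENSG00000107159, chromosome 9, 35673856 to 35681159, plus strand), was at 0.0217, 0.0506, 0 and 0 FPKM across Controls 1 to 4, against 0.587, 0.263, 0.265 and 0.130 FPKM across OGD-R 1 to 4. All OGD-R libraries lay above all Controls, and OGD-R 1 was the highest. Control values were near the worth of single fragments, so no fold is given. The gene shares 38.5% of its exonic bases with ARHGEF39 on the opposite strand. Whether counting used strand is not given, so reads on the bases this pair shares cannot be told apart. ARHGEF39 was at 5.16, 4.69, 0.610 and 0.474 FPKM across Controls 1 to 4, against 4.04, 4.38, 3.58 and 3.55 FPKM across OGD-R. It was highest in Controls 1 and 2 and, like CA9, lower in Controls 3 and 4 than in OGD-R.

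The promoter of CA9 is shown with that of SLC16A3, because both genes are targets of hypoxia-inducible factor and lay on opposite sides of Control. The factor's core motif, ACGTG, was searched on both strands in the 250 bases before each RefSeq start (GRCh38.p14), and matches are in capitals. It is found in 18.5% of 35116 such windows. A match says only that the letters are there. In SLC4A2, 2 of 4 starts, whose windows overlap, hold the palindrome CACGTG, which contains ACGTG on both strands, and ATP6V1B1, CA12 and SLC4A7 hold 0. RefSeq windows were found for 6 of the 9 genes. CA9 has 1 match on the reverse strand, starting 18 bases before its start, at chr9:35673678-35673927 on the plus strand. SLC16A3 has 5 starts, of which the second, at chr17:82228792-82229041 on the plus strand, has 2 matches, starting 68 and 55 bases before it, and the other 4 have 0.
CA9: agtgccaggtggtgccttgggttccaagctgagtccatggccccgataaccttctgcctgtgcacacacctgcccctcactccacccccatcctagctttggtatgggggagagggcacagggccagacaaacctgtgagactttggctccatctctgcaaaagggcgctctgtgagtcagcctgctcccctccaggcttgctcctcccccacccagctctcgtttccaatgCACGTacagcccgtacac
SLC16A3: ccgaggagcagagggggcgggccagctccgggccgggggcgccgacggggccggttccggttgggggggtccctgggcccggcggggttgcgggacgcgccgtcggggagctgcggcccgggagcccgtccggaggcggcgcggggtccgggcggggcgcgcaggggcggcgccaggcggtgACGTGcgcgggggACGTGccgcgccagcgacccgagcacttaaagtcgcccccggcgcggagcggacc

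ATP6V1B1 encodes the B1 form of the ATP-binding B subunit of the V-ATPase, known from acid-secreting cells such as the intercalated cells of the kidney. The gene (ENSG00000116039) lies on chromosome 2, 70935868 to 70965431, plus strand. It was at 0.196, 0.138, 4.79 and 5.66 FPKM across Controls 1 to 4, against 21.8, 19.5, 22.3 and 17.0 FPKM across OGD-R 1 to 4. Controls 1 and 2 were close to 0, Controls 3 and 4 were intermediate, and the lowest OGD-R library was 3.01-fold above the highest Control. The log2 fold change was 2.97 ± 0.61 (SE), with 4.17 ± 0.11 without Controls 3 and 4 and 1.76 ± 0.11 without Controls 1 and 2. VAX2, a homeobox gene on the same strand, shares 62.3% of the exonic bases annotated to ATP6V1B1, and how reads were divided is not given. VAX2 was at or below 0.177 FPKM in every library.

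The B2 form, the broadly expressed counterpart of B1, had a like level in all libraries. ATP6V1B2 was at 26.1, 26.8, 26.9 and 21.8 FPKM across Controls 1 to 4, against 25.9, 25.0, 23.1 and 25.2 FPKM across OGD-R, with overlapping groups. ATP6V1B1 therefore made up 0.745%, 0.511%, 15.1% and 20.6% of the summed B subunit FPKM across Controls 1 to 4. In OGD-R 1 to 4 the share was 45.7%, 43.9%, 49.0% and 40.3%. The sum of both forms was 28.1 ± 2.46 FPKM in Control and 45.0 ± 2.25 FPKM in OGD-R (SD, n = 4 each).

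**Figure D2:**
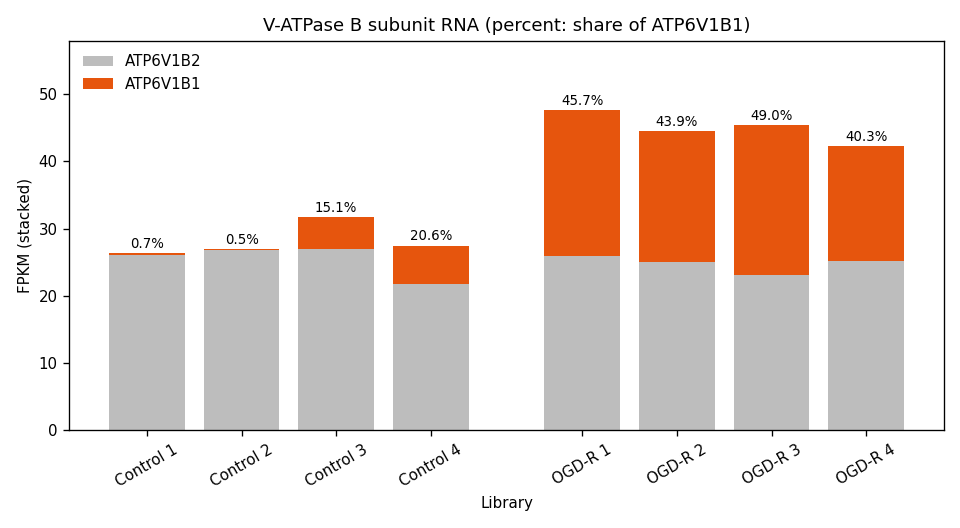
FPKM of the B subunit genes ATP6V1B2 (grey) and ATP6V1B1 (orange), stacked, in each library, with the share of ATP6V1B1 printed above each bar. ATP6V1B2 is at a like height in all 8 libraries, and the orange part takes between 40.3% and 49.0% in OGD-R.

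Markers of ionocytes and intercalated cells, the cell types known for ATP6V1B1, were examined beside it. FOXI1, their defining transcription factor, was between 0 and 0.0444 FPKM, and BSND, a chloride channel subunit gene, was at 0 in every library. The summed FPKM of the 8 markers was between 0.535 and 5.21 in Control and between 1.23 and 1.89 in OGD-R, and 1 of the 8 had a mean above 1 FPKM. That gene was ATP6V0D2, a V0 subunit of acid-secreting cells, at 0.552, 0.448, 4.98 and 4.67 FPKM across Controls 1 to 4, against 1.19, 1.34, 1.87 and 1.34 FPKM across OGD-R. Like ATP6V1B1 it was higher in Controls 3 and 4 than in Controls 1 and 2, but OGD-R lay between the pairs.

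No other V-ATPase subunit gene was called higher in OGD-R. Of 24 other subunit genes, 19 could be tested, and 4 fell, 0 rose and 15 did not pass (median log2 fold change -0.06, against 0.02 over all genes; 10.2% of genes were called higher and 9.69% lower). ATP6V0C, the proteolipid of the membrane ring, fell from 65.9 ± 2.82 FPKM to 40.7 ± 2.59 FPKM (SD, n = 4 each; log2 fold change -0.68 ± 0.08 (SE), limma adjusted p = 0.00123). ATP6V0A2, a membrane subunit of the Golgi form, fell by 0.44 on the log2 scale (limma adjusted p = 0.0132), a call lost without OGD-R 3 (limma adjusted p = 0.0508). The stalk subunits ATP6V1G1 and ATP6V1D fell by 0.43 and 0.34 (limma adjusted p = 0.0302 and 0.0457), and each call was lost on leaving out any 1 OGD-R library or Control 3, and when scaled without mitochondrial genes. That of ATP6V1D was also lost without Control 1, and that of ATP6V1G1 with median-ratio scaling (limma adjusted p = 0.0576). ATP6V1E1, the V1 gene of highest mean, was at 134.5 ± 10.9 FPKM in Control and 128.5 ± 6.71 FPKM in OGD-R, and ATP6V0D1, the V0 gene of highest mean over all 8 libraries, at 61.5 ± 11.6 and 60.7 ± 2.06 FPKM (SD, n = 4 each; limma adjusted p = 0.654 and 0.996). ATP6V0D1 was called in opposite directions by the Controls kept, with a log2 fold change of -0.22 against Controls 1 and 2 and of 0.22 against Controls 3 and 4 (limma adjusted p = 0.0118 and 0.0313).

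Of 12 genes that assemble or regulate the pump, 2 rose, 0 fell and 10 did not pass (median log2 fold change 0.25), beside 10.2% of all genes called higher and 9.69% lower. ROGDI, which belongs to a complex that reassembles the pump, was at 5.91, 6.14, 10.1 and 11.0 FPKM across Controls 1 to 4 and averaged 14.1 ± 0.968 FPKM in OGD-R (SD, n = 4) (log2 fold change 0.75 ± 0.19 (SE), limma adjusted p = 0.0297). This call was lost without any single OGD-R library (the highest adjusted p was 0.0862) and without Control 2 (limma adjusted p = 0.0530), and with median-ratio scaling (limma adjusted p = 0.0527). MITF, a transcription factor of the family that drives lysosomal genes, was at 1.02 ± 0.141 FPKM in Control and 1.86 ± 0.168 FPKM in OGD-R (SD, n = 4 each; log2 fold change 0.50, limma adjusted p = 0.00995). TFE3 and TFEB, of the same family, had more RNA than MITF, lower means in OGD-R and overlapping groups, and were not called. Means in Control and OGD-R were 26.8 and 17.6 FPKM for TFE3 and 4.94 and 4.16 FPKM for TFEB (limma adjusted p = 0.222 and 0.725). Markers of melanocytes, the cells MITF is best known from, were low, with a summed FPKM of the 6 markers of at most 0.699. TMEM9, the most abundant gene of this list, was at 29.3, 29.2, 18.7 and 14.2 FPKM across Controls 1 to 4 and averaged 22.9 ± 1.23 FPKM in OGD-R (SD, n = 4; limma adjusted p = 0.872). It too was called in opposite directions, at -0.34 against Controls 1 and 2 and 0.46 against Controls 3 and 4 (limma adjusted p = 0.00213 and 0.00297).

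SLC16A1 encodes MCT1, which moves lactate with a proton in either direction (ENSG00000155380, chromosome 1, 112911847 to 112957013, minus strand). Its level was 65.4, 66.3, 45.2 and 44.5 FPKM across Controls 1 to 4, against 40.2, 39.9, 37.9 and 40.5 FPKM across OGD-R 1 to 4. The Controls fell in 2 places, and Controls 3 and 4 were closer to OGD-R than to Controls 1 and 2. Controls 1 and 2 averaged 1.66-fold and Controls 3 and 4 1.13-fold above OGD-R. The log2 fold change was -0.45 ± 0.15 (SE) with all libraries. With Controls 3 and 4 left out it was -0.72, and with Controls 1 and 2 left out -0.17.

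SLC16A3 encodes MCT4, the lactate exporter of glycolytic cells (ENSG00000141526, chromosome 17, 82228397 to 82261129, plus strand). It was at 11.1, 12.4, 20.1 and 15.1 FPKM across Controls 1 to 4, against 5.90, 5.95, 4.32 and 4.17 FPKM across OGD-R 1 to 4. Every Control was at least 1.87-fold above every OGD-R library. Means were 14.7 ± 4.00 and 5.09 ± 0.971 FPKM in Control and OGD-R (SD, n = 4 each). The log2 fold change was -1.34 ± 0.19 (SE), with -1.08 without Controls 3 and 4 and -1.61 without Controls 1 and 2. The gene shares 5.36% of its exonic bases with CSNK1D on the opposite strand. CSNK1D was at 37.91, 37.95, 54.63 and 52.25 FPKM across Controls 1 to 4, against 40.74, 37.19, 35.44 and 38.27 FPKM across OGD-R 1 to 4. Like SLC16A3, it was highest in Controls 3 and 4. Whether counting used strand is not given, so reads on the shared bases cannot be told apart.

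The balance of the lactate carriers also differed between libraries. SLC16A3 made up 14.5%, 15.7%, 30.8% and 25.3% of the summed FPKM of SLC16A1 and SLC16A3 in Controls 1 to 4 and 12.8%, 13.0%, 10.2% and 9.34% in OGD-R. Controls 3 and 4, where SLC16A1 was low and SLC16A3 high, had the highest shares. Of other targets of hypoxia-inducible factor, CA9 was at 0 in Controls 3 and 4 and highest in OGD-R, as given above. VEGFA was highest in Controls 3 and 4, at 25.8, 25.8, 128 and 142 FPKM across Controls 1 to 4, against 11.0, 10.6, 11.3 and 12.1 FPKM across OGD-R. HIF1A, the oxygen-regulated subunit of the factor, was at 45.5, 50.3, 53.5 and 54.9 FPKM across Controls 1 to 4, against 37.3, 34.9, 35.5 and 37.4 FPKM across OGD-R.

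Among other lactate genes, of 18 further monocarboxylate transporters, chaperones and lactate dehydrogenases, 7 could be tested, and 0 rose and 0 fell with limma (median log2 fold change 0.02), too few genes to set against the 10.2% and 9.69% of all genes. LDHA and BSG differed between the pairs of Controls. LDHA, the lactate dehydrogenase form that favours lactate, was at 800, 898, 380.0 and 411 FPKM across Controls 1 to 4, against 641, 737, 740.2 and 685 FPKM across OGD-R (limma adjusted p = 0.536). It was called lower without Controls 3 and 4 (log2 fold change -0.28, limma adjusted p = 0.0147) and higher without Controls 1 and 2 (0.82, limma adjusted p = 1.68e-05). BSG, the chaperone that brings MCT1 and MCT4 to the membrane, was at 375, 362, 322 and 279 FPKM across Controls 1 to 4 and between 297 and 322 FPKM in OGD-R.

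SLC4A7 encodes NBCn1, a sodium bicarbonate cotransporter that brings base into the cell (ENSG00000033867, chromosome 3, 27372721 to 27484420, minus strand). Its level was 5.01, 5.51, 6.92 and 5.68 FPKM across Controls 1 to 4, against 2.89, 2.51, 2.64 and 2.58 FPKM across OGD-R 1 to 4. Every Control was at least 1.73-fold above every OGD-R library. The log2 fold change was -0.88 ± 0.10 (SE), and with either pair of Controls left out it was -0.78 or -0.99. The spread within OGD-R was small, with a mean of 2.65 ± 0.163 FPKM (SD, n = 4).

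SLC4A2 encodes AE2, which exchanges bicarbonate for chloride and so takes base out of the cell (ENSG00000164889, chromosome 7, 151057210 to 151076527, plus strand). It was at 18.3, 18.7, 20.3 and 18.2 FPKM across Controls 1 to 4, against 16.5, 14.6, 15.1 and 14.5 FPKM across OGD-R. The difference was small, 1.24-fold by means, and the lowest Control was 1.10-fold above the highest OGD-R library. The log2 fold change was -0.30 ± 0.08 (SE). Opposite-strand genes share parts of its exons, among them CDK5 with 4.36% of its exonic bases. The ratio of SLC4A7 to SLC4A2 was between 0.274 and 0.340 in Control and between 0.172 and 0.177 in OGD-R, so the base importer was lower relative to the exporter in every OGD-R library.

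**Figure D3:**
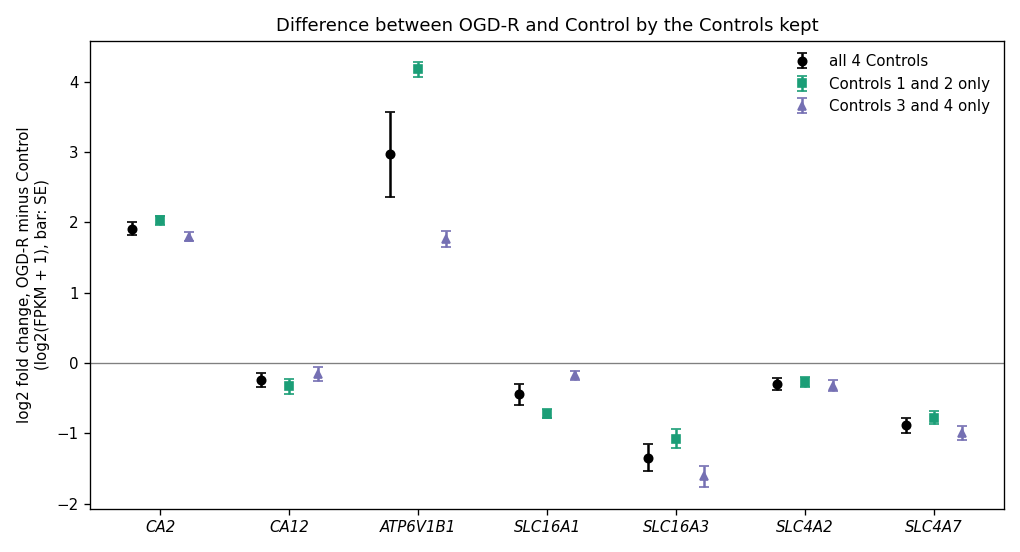
Log2 fold change (OGD-R minus Control, on log2(FPKM + 1), bars: SE) of the 7 genes that passed the filter of 1 FPKM, with all Controls (black), Controls 1 and 2 alone (green) or Controls 3 and 4 alone (purple). ATP6V1B1 moves from 4.17 to 1.76 and SLC16A1 from -0.72 to -0.17 with the Controls kept. No gene changes direction, which follows from groups that do not overlap and is no sign of stability.

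Among the other genes of pH control, calls went in both directions and were about as frequent as over all genes. Of 109 such genes, the V-ATPase and lactate lists included, 56 could be tested, and 5 rose, 7 fell and 44 did not pass (median log2 fold change 0.02, as over all genes), beside 19.9% of all genes called in either direction. Scaled without mitochondrial genes, 9 rose and 4 fell, while over all genes this scaling called 1611 higher and 873 lower against 1202 and 1138. Of 14 sodium-proton exchangers and their partners, 8 could be tested, and 1 rose and 2 fell. SLC9A3R1, a scaffold that holds transporters at the membrane, rose from 48.7, 51.4, 32.8 and 35.3 FPKM across Controls 1 to 4 to a mean of 76.9 ± 7.601 FPKM (SD, n = 4; log2 fold change 0.88 ± 0.16 (SE), limma adjusted p = 0.00823). It was 1.54-fold above Controls 1 and 2 and 2.25-fold above Controls 3 and 4. Its relative SLC9A3R2 fell by 0.66 on the log2 scale (limma adjusted p = 0.0201), a call lost without OGD-R 2, 3 or 4 (adjusted p between 0.0632 and 0.0656).

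TMEM206, the acid-activated chloride channel also named PACC1, fell from 5.705 ± 0.910 to 3.005 ± 0.239 FPKM (SD, n = 4 each; log2 fold change -0.74, limma adjusted p = 0.00393). TRPV1, the ion channel opened by acid, heat and capsaicin, rose from 3.60 ± 0.840 to 7.602 ± 0.588 FPKM (SD, n = 4 each; log2 fold change 0.92 ± 0.15 (SE), limma adjusted p = 0.00439). Of 9 acid sensors 2 could be tested, and TRPV1 was the 1 called, too few genes to set against the 10.2% of all genes called higher.

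Of the 11 other carbonic anhydrases, 2 passed the filter. CA11, a relative with no known catalytic activity, was at 0.280, 0.339, 1.05 and 1.01 FPKM across Controls 1 to 4, against 1.65, 1.52, 2.04 and 1.95 FPKM across OGD-R (log2 fold change 0.77, limma adjusted p = 0.0225). It passed the filter only through OGD-R, and the call was lost without any single OGD-R library (the highest limma adjusted p was 0.0726). CA5B, a mitochondrial enzyme, was at 2.62 ± 0.836 and 2.50 ± 0.470 FPKM in Control and OGD-R (SD, n = 4 each; limma adjusted p = 0.921). Of 14 other bicarbonate transporters and regulators, 4 could be tested, and 0 rose and 0 fell with limma. These are too few genes to set against the 10.2% and 9.69% of all genes. The most abundant, AHCYL1, an activator of sodium bicarbonate cotransport, was at 23.4 ± 3.35 and 26.1 ± 1.53 FPKM (SD, n = 4 each; limma adjusted p = 0.364). It was called higher against Controls 3 and 4 alone (log2 fold change 0.32, limma adjusted p = 0.00296).

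**Figure D4:**
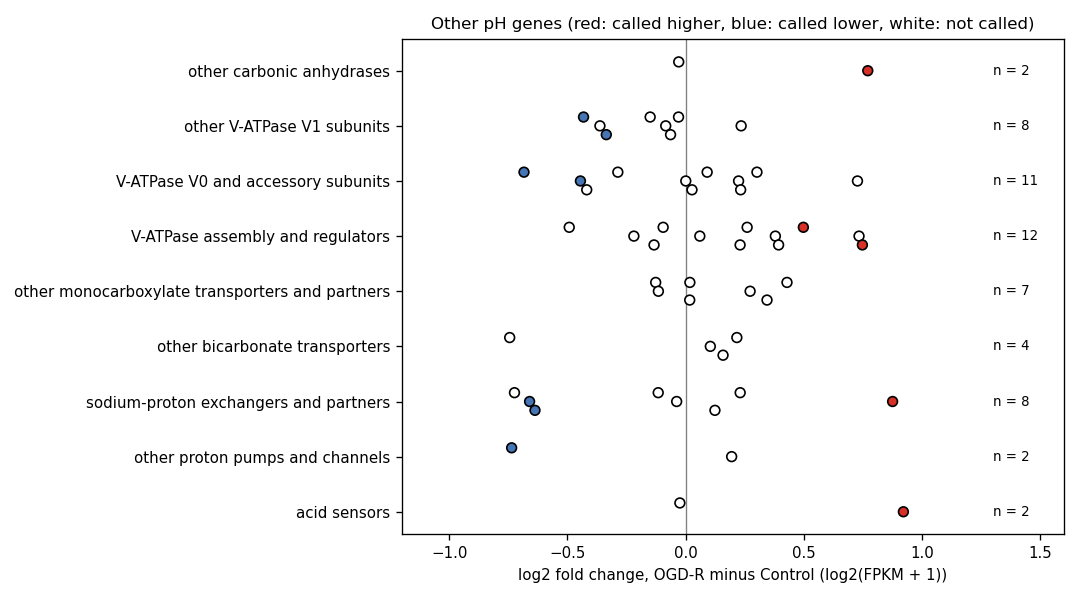
Log2 fold change (OGD-R minus Control, on log2(FPKM + 1)) of each tested pH gene outside the 9, by list, with genes called higher in red, called lower in blue and not called in white. Of 56 genes, 5 are red and 7 blue, and the pump subunit lists hold 4 of the blue ones and 0 of the red ones.

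The genes whose log2 values ran most nearly with CA2 over the 8 libraries included PRRG4 and SEMA6D (Pearson r = 0.9975 and 0.9967). PRRG4, a transmembrane Gla protein gene, was between 9.20 and 11.4 FPKM in Control and between 24.4 and 25.1 FPKM in OGD-R. The nearest to ATP6V1B1 were KRT13 and KRT4, keratins of mucosal epithelium (r = 0.9973 and 0.9971). KRT13 was at 71.1, 60.8, 303 and 297 FPKM across Controls 1 to 4 and between 764 and 946 FPKM in OGD-R, with Controls 3 and 4 between Controls 1 and 2 and OGD-R, as for ATP6V1B1. ZBED2, USP14 and COTL1 ran most nearly with SLC16A1 (r = 0.9979, 0.9965 and 0.9962), and COTL1, an actin-binding protein gene, was at 256, 256, 120 and 124 FPKM across Controls 1 to 4 and between 91.0 and 103 FPKM in OGD-R. All points share the same 8 libraries and their 2 groups, so they are not independent, and no test is given.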

How the data were processed

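Each library has 1 deposited table holding an ID, a gene symbol and 1 value, whose unit no header states. The values the authors deposited were taken as FPKM, because part of the lowest values of 944 single-exon genes were spaced by a constant divided by gene length. Of 140 to 176 low values per library, between 18 and 33 lay on the best spacing found, and the others did not. The search did not go below a set lower bound, so a finer spacing is not excluded, and the unit and the depth rest on few values. The spacing does not tell FPKM from other units scaled to gene length. Per the labels' protocols, total RNA was used and both a NEBNext and a SMARTer kit are named. The aligner, the counting tool, the strand setting and the genome build were not given in the sources used here. All 19974 Ensembl IDs were found in GENCODE 29 (GRCh38), which gave coordinates and overlaps; 4278 rows have other IDs. Any 2 libraries had at most 1 identical nonzero value in common.

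The test was run on log2(FPKM + 1) in limma 3.58.1 in R 4.3.3 with an intensity trend, over the 11740 genes whose mean reached 1 FPKM, with Benjamini-Hochberg adjustment over all of them and a threshold of 0.05. Changes of low genes are understated on this scale. The limma test was tried on simulated data in which both groups had the spread of the OGD-R libraries. The split among the Controls was not part of that trial. A count model foreseen for counts was not used.

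The 9 genes, the lists and the tests were chosen with earlier results of these data known. Outside the 9, each list gave up to 4 called genes whose groups do not overlap, by size of change, and its most abundant gene, and the 3 genes of highest correlation were named for CA2, ATP6V1B1 and SLC16A1. Some genes that this rule names are not reported here. ATP6V1B2, ATP6V0D2, BSG, CA1, CA3 and genes that overlap a member were added after their values were seen. The motif and its promoters were also chosen then. Alternatives covered pseudocounts, filters, the trend, scalings, a replicate block and libraries left out. Figures used matplotlib 3.10.9.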

Additional observations from a re-analysis of the deposited data

Results flagged for a closer look

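In 5 of 54 groups of 4 libraries, each a named gene in Control or in OGD-R, 1 library lay apart from the other 3 by more than Dixon's limit for the gap as a share of the group's range. Chance flags about 1 in 20 such groups. CA2 was lowest in OGD-R 1 (238.5 FPKM against 255 to 257 FPKM; gap 0.890 of the range), still 3.26-fold above the highest Control. CA13 was highest in Control 3 (0.459 FPKM against 0.387 to 0.390 FPKM; gap 0.968). ATP6V1E1 was lowest in OGD-R 2 (118 FPKM against 131.5 to 132 FPKM in the other OGD-R libraries; gap 0.943), SLC9A3R2 was highest in OGD-R 1 (6.78 FPKM; gap 0.839), and TRPV1 was lowest in Control 1 (2.36 FPKM against 3.86 to 4.21 FPKM; gap 0.844).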

How the results depend on the processing

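The direction of the 7 tested members is fixed by the choice of the set and is no sign of stability. Of their values, that of ATP6V1B1 moved most, to a log2 fold change of 4.09 with a pseudocount of 0.1 and 4.39 with 0.01. Over all genes, the 1202 higher and 1138 lower calls became 625 and 507 with the replicate block, 2700 and 3808 without Controls 3 and 4, and 4636 and 3360 without Controls 1 and 2. With 1 library left out they ranged from 700 to 1448 higher and from 565 to 1321 lower, and the lower ends came from leaving out an OGD-R library. Among the other pH genes, the 5 higher and 7 lower calls became 3 and 2 with the block, 9 and 17 without Controls 3 and 4, 26 and 15 without Controls 1 and 2, and 9 and 4 scaled without mitochondrial genes. With 1 library left out they ranged from 3 to 6 higher and from 2 to 8 lower. The cause was not tested. Deviations of same-numbered Control and OGD-R libraries correlated at between 0.045 and 0.065, and Control 1 correlated best with OGD-R 2 (0.109). Controls 1 and 2 correlated positively with OGD-R 1 and 2 (0.045 to 0.109) and negatively with OGD-R 3 and 4 (-0.106 to -0.028). Controls 3 and 4 did the reverse (0.053 to 0.113 and -0.087 to -0.027). Since the Controls differ mostly between their pairs, these small values cannot show whether libraries were paired by number. The blocked values cannot show it either. Among the calls the block ended were those of ATP6V1G1, ATP6V1D, ATP6V0A2, ROGDI, MITF and SLC9A3R2. A count model was not run, since the values are not counts. Levels near 0.02 FPKM, such as CA9 in Control, are near the worth of 1 fragment.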
